A study of Ovis aries with 2 samples.

Results

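COL2A1, SOX9 and COL11A1 were followed across single cells of E16 sheep embryos as the early cartilage program. The 3 genes were picked by symbol from the 26478 features of the deposited tables by a rule that does not use their counts, with earlier results of these data known. Each symbol was carried by 1 feature: ENSOARG00020002410 for COL2A1, ENSOARG00020025942 for SOX9 and ENSOARG00020002671 for COL11A1.

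Whole embryos of 2 breeds were compared at embryonic day 16: Ujumqin sheep, which have a long fat tail, and Hulunbuir sheep, which have a short tail. Ewes of both breeds were synchronized with progesterone sponges and PMSG, the tissue outside the embryo was removed, red cells were lysed, and the embryos of each breed were pooled into 1 droplet library. With 1 library per breed, breed, pool and library cannot be told apart, so no test between breeds was possible, and every interval below is a 95% interval that covers counting error only. Cells cannot be assigned to single embryos in such a pool.

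COL2A1 encodes the chain of type II collagen, the main fibrillar collagen of cartilage, which is also laid down around the notochord and by several embryonic epithelia before any cartilage exists. SOX9 is an HMG-box transcription factor that is required for chondrocyte formation and activates COL2A1 and COL11A1 in chondrocytes; it also acts in neural crest, notochord, gut and other progenitors. COL11A1 encodes a chain of type XI collagen, which sits inside type II collagen fibrils and limits their width, and it is also made in mesenchyme together with type I and type V collagens. Cartilage of the vertebrae comes from the sclerotome, the ventral part of the somite, while the limb skeleton comes from lateral plate mesenchyme.

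There were 17059 barcodes with 212933364 UMIs for Ujumqin and 10709 barcodes with 131385353 UMIs for Hulunbuir. Cells with at least 200 detected genes and under 10% mitochondrial UMIs were kept, 14554 and 9583 of them, with medians of 9519 and 11879 UMIs. The libraries shared 61 barcodes, of which 50 were kept in both. Their make-up differed: 5232 Ujumqin cells and 4 Hulunbuir cells fell into the erythroid gate. Outside that gate the median depth was 1791.5 UMIs in 9322 Ujumqin cells and 11883 UMIs in 9579 Hulunbuir cells, so shares of cells with a UMI were also computed after each cell had been thinned to 5000 UMIs, leaving out shallower cells.

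Cells were sorted into gates by 17 marker lists that contained none of the 3 genes. A cell entered the gate with the most of its markers present, if at least 2 were present and no other list tied. The somite gate was carried by PAX3 and MEOX1, detected in 39 and 47 of 51 Ujumqin cells and in 120 and 132 of 159 Hulunbuir cells. PAX1, a sclerotome transcription factor, was detected in 5 Ujumqin and 8 Hulunbuir cells. PAX9, a relative of PAX1, and NKX3-2, which acts downstream of both, were each detected in 1 Hulunbuir cell and in 0 Ujumqin cells. Several gates did not match the names of their lists in full. The gut list selected EPCAM and CLDN4 cells with SOX17 in 0 of 131 and 0 of 153, so they are called EPCAM/CLDN4 cells. The neural crest list selected TFAP2A and TFAP2B cells with SOX10 in 9 of 37 Ujumqin and 2 of 48 Hulunbuir cells, and they are called TFAP2A/TFAP2B cells. The cardiomyocyte gate was led by TNNC1, TNNI1 and MYL4, with NKX2-5 in 0 of 100 and 1 of 129 cells, and it is called the TNNC1/TNNI1 gate. The presomitic mesoderm list selected DLL1 and DLL3 cells, in 19 and 21 of 23 Ujumqin and in 259 and 285 of 294 Hulunbuir cells, with TBX6 in 0 and 10 and MSGN1 in 0 and 24, and they are called DLL1/DLL3 cells. The neural tube gate held SOX2, IRX3 and PAX6 cells but SOX1 in 0 of 33 and 2 of 162.

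COL2A1 was concentrated in few cells. The Ujumqin library held 1767 UMIs of COL2A1 in 571 cells, and 82 cells carried 50% of them. The Hulunbuir library held 4957 UMIs in 2077 cells, and 389 cells carried 50%. SOX9 was thinner: 1151 UMIs in 714 Ujumqin cells and 2211 UMIs in 1439 Hulunbuir cells, with a single UMI in 71.3% and 72.4% of the cells that had any. COL11A1 gave 4759 UMIs in 1507 Ujumqin cells and 5239 UMIs in 2677 Hulunbuir cells. As a background reference, the Ujumqin erythroid gate (median 20405.5 UMIs), whose cells should make none of the 3, held COL2A1 at 0.622, SOX9 at 0.292 and COL11A1 at 0.622 UMIs per 1000000 UMIs (CPM, the unit of every level below). The endothelium gate held 0.623 and 1.42 CPM of COL2A1 in Ujumqin and Hulunbuir.

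The somite gate held one of the highest COL2A1 levels in both libraries. COL2A1 stood at 157 CPM (135 to 181, 186 UMIs) in the 51 Ujumqin cells and at 112 (98.7 to 128, 241 UMIs) in the 159 Hulunbuir cells. A COL2A1 UMI was found in 80.4% of the Ujumqin cells and 57.9% of the Hulunbuir cells, at median depths of 15524 and 11439 UMIs. After thinning these shares were 50% (35.5 to 64.5, 25 of 50 cells, 1 left out) and 36.9% (29.2 to 45.2, 55 of 149 cells, 10 left out). The thinned share was 0.185% (9 of 4874 cells) in the Ujumqin erythroid gate and 0.862% (3 of 348 cells) in the Hulunbuir endothelium gate. COL2A1 in somite cells was thus above the level of cells that should lack it.

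SOX9 was also present in the somite gate, at 29.6 CPM (20.6 to 41.1, 35 UMIs) in Ujumqin and 35.9 (28.3 to 44.9, 77 UMIs) in Hulunbuir. COL11A1 was low there, at 6.76 (2.92 to 13.3, 8 UMIs) and 10.3 (6.43 to 15.5, 22 UMIs). Cells were also selected by single genes. PAX3 and MEOX1 carried the somite gate, so cells selected by them overlap with it and are not separate evidence. Cells with a UMI of PAX3, a transcription factor of the dorsal somite and neural tube, held COL2A1 at 136 (123 to 151) in 139 Ujumqin cells and 56.7 (52.4 to 61.3) in 780 Hulunbuir cells. Cells with MEOX1, a somite homeobox gene, held 126 (114 to 138) and 79.6 (71.8 to 87.9). The 5 Ujumqin and 8 Hulunbuir cells with PAX1 held COL2A1 at 190 (109 to 309) and 127 (58.2 to 242) and SOX9 at 95.1 (41.1 to 187) and 70.7 (23.0 to 165). Their COL11A1 was 0 UMIs in Ujumqin and 14.1 CPM in Hulunbuir, both below the level that 3 UMIs would give.

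**Figure D1:**
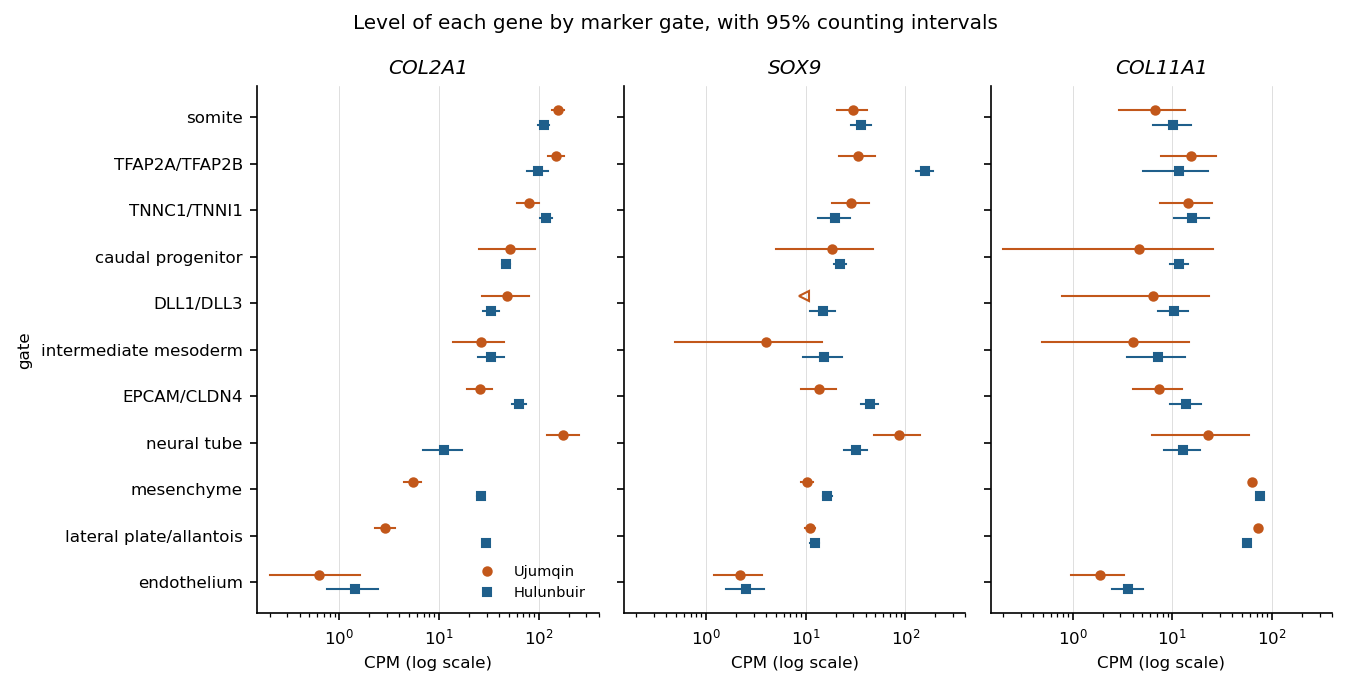
Level of each gene in CPM (log scale) in 11 marker gates, Ujumqin as orange circles and Hulunbuir as blue squares, with 95% Poisson intervals; an open triangle marks the 3-UMI limit where a gate held 0 UMIs. COL2A1 was highest in the somite, TFAP2A/TFAP2B and TNNC1/TNNI1 gates, COL11A1 in the lateral plate and mesenchyme gates, and the Ujumqin neural tube point for COL2A1 rests on 1 cell.

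COL2A1 was not particular to the somite gate. TFAP2A/TFAP2B cells held 150 CPM (123 to 181) in 37 Ujumqin cells and 97.7 (75.7 to 124) in 48 Hulunbuir cells. The TNNC1/TNNI1 gate held 79.2 (61.3 to 100.8) in 100 Ujumqin cells and 119 (103 to 137) in 129 Hulunbuir cells. Neighbours in this order had overlapping intervals in both libraries: somite and TFAP2A/TFAP2B in Ujumqin, and somite, TFAP2A/TFAP2B and TNNC1/TNNI1 in Hulunbuir. Below them stood the Hulunbuir EPCAM/CLDN4 gate at 64.0 (54.2 to 75.2, 153 cells), the Hulunbuir caudal progenitor gate (FGF8, CDX2 and CDX4) at 47.2 (42.7 to 52.0, 677 cells) and the Hulunbuir DLL1/DLL3 gate at 33.2 (27.4 to 39.8, 294 cells). The Hulunbuir DLL1/DLL3 gate held less COL2A1 than the somite gate of that library, with intervals that did not overlap. The intermediate mesoderm gate held 26.2 and 33.3 CPM in 18 Ujumqin and 79 Hulunbuir cells.

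SOX9 followed another order. Its highest level in a gate of at least 20 cells was 157 CPM (129 to 190, 108 UMIs) in the 48 Hulunbuir TFAP2A/TFAP2B cells, against 33.6 (21.5 to 50.04, 24 UMIs) in the 37 Ujumqin cells of that gate. The Hulunbuir EPCAM/CLDN4 gate held 44.3 (36.1 to 53.7) and the Ujumqin one 13.7 (8.93 to 20.03). In the lateral plate and mesenchyme gates SOX9 lay between 10.3 and 16.4 in both libraries, above its endothelial level of 2.18 in Ujumqin and 2.52 in Hulunbuir. The 23 Ujumqin DLL1/DLL3 cells held 0 SOX9 UMIs, where 3 UMIs would have been 9.60 CPM, against 14.9 (11.1 to 19.5) in the 294 Hulunbuir cells.

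COL11A1 was highest in gates where COL2A1 was not. In the lateral plate and allantois gate (HAND2, PITX1, TBX4) COL11A1 stood at 72.1 CPM (68.9 to 75.4) in 569 Ujumqin cells and 56.0 (53.5 to 58.6) in 1733 Hulunbuir cells. In the mesenchyme gate (COL3A1, LUM, TWIST1, PRRX1) it stood at 62.7 (59.2 to 66.3) in 966 cells and 75.9 (72.3 to 79.7) in 1480 cells. Every other gate of at least 20 cells named here lay at 22.9 or below. These 2 gates held 40.2% and 25.6% of all Ujumqin COL11A1 UMIs and 35.8% and 31.5% of all Hulunbuir ones. COL2A1 in the same gates was 2.87 and 5.46 CPM in Ujumqin and 29.6 and 26.1 in Hulunbuir.

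The ratio of the 2 collagens, which compares the same pair of transcripts across gates, showed the contrast on 1 scale. In Ujumqin there were 0.0430 COL11A1 UMIs for each COL2A1 UMI in the somite gate (0.0183 to 0.0865), 11.5 in the mesenchyme gate (9.41 to 14.1) and 25.2 in the lateral plate gate (20 to 32.1). In Hulunbuir the ratio was 0.0913 (0.0562 to 0.141), 2.90 (2.64 to 3.20) and 1.89 (1.75 to 2.04) in the same order. In Hulunbuir it was 0.134 in the TNNC1/TNNI1 gate, 0.248 in the caudal progenitor gate 1.14 (0.610 to 2.16) in the neural tube gate and 2.54 (1.30 to 5.26) in the endothelium gate, which held only 13 COL2A1 UMIs.

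Single cells gave the same picture at fixed depth. Outside the erythroid gate and at 5000 UMIs per cell, COL11A1 was found in 5.29% (2.76 to 9.05, 12 of 227) of the Ujumqin cells with COL2A1 and in 16.9% (15.6 to 18.3, 503 of 2968) of those without it. In Hulunbuir the shares were 10.4% (8.68 to 12.3, 117 of 1124) and 16.6% (15.7 to 17.6, 1067 of 6412). The thinning left out 6127 Ujumqin and 2043 Hulunbuir cells. COL2A1 and COL11A1 were therefore seen in the same cell less often than COL11A1 was seen in cells without COL2A1, and the intervals did not overlap in either library. The contrast held inside the Hulunbuir mesenchyme gate, where COL11A1 was found in 15.8% (10.3 to 22.7) of cells with COL2A1 and in 30.2% (27.6 to 32.9) of the rest.

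COL2A1 was more frequent in cells with SOX9 than in the rest in both libraries. It was detected in 18.9% (12.8 to 26.3, 27 of 143) of the Ujumqin cells with SOX9 and in 6.55% (5.70 to 7.49) of those without it. In Hulunbuir it was detected in 18.9% (15.6 to 22.5, 99 of 525) and 14.6% (13.8 to 15.5). For COL11A1 the intervals overlapped, with 17.5% (11.6 to 24.7) of Ujumqin cells with SOX9 and 16.1% (14.8 to 17.4) of the rest. The Hulunbuir shares were 16.2% (13.1 to 19.6) and 15.7% (14.8 to 16.5). In the somite gate COL2A1 was found in 6 of 6 thinned Ujumqin cells with SOX9 (54.1% to 100%) and in 43.2% (28.3 to 59.0) of the rest. In the Hulunbuir somite gate it was found in 8 of 18 (44.4%, 21.5 to 69.2) and in 35.9% (27.7 to 44.7) of the rest, so the 2 shares could not be separated at this depth. In the Hulunbuir EPCAM/CLDN4 gate the intervals were apart, with COL2A1 in 10 of 17 cells with SOX9 (58.8%, 32.9 to 81.6) and in 17.1% (10.8 to 25.2) of the rest. In the Hulunbuir mesenchyme gate 3 of 81 cells with SOX9 had COL2A1 (3.70%, 0.770 to 10.4), against 11.6% (9.85 to 13.5) of the rest, and these intervals overlapped.

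**Figure D2:**
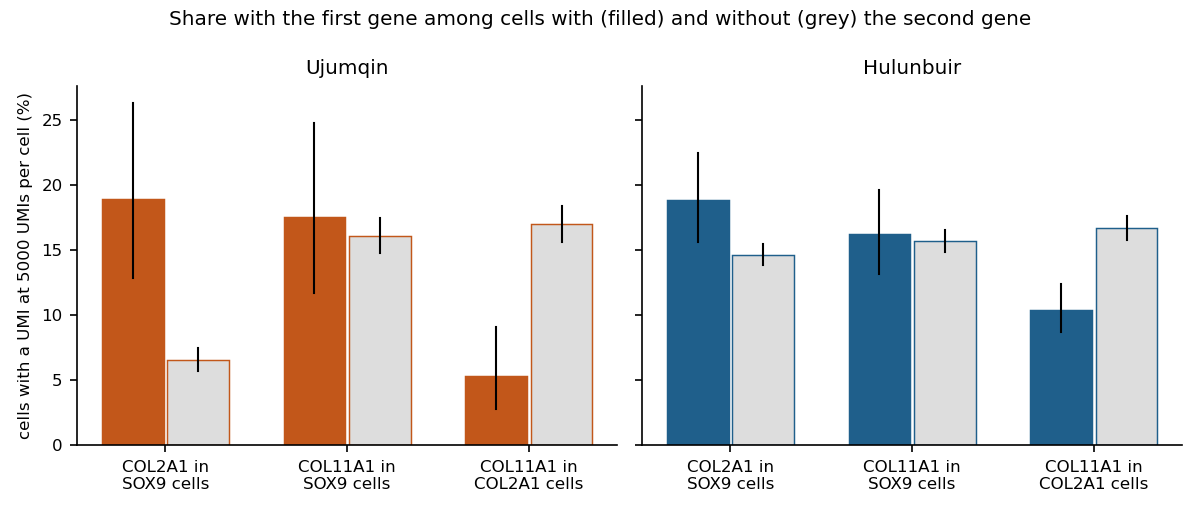
Share of kept cells outside the erythroid gate, thinned to 5000 UMIs, with a UMI of the first-named gene, among cells with (filled bars) and without (grey bars) the second-named gene, in percent; lines are 95% binomial intervals. COL2A1 was more frequent with SOX9 (18.9% in both libraries), and COL11A1 was less frequent with COL2A1 (5.29% and 10.4%) than without it.

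A large part of the Hulunbuir COL2A1 lay in cells with CDX2, a homeobox gene of the posterior embryo. This split was chosen after the levels by marker had been seen, and CDX2 is itself one of the caudal progenitor markers. Outside the erythroid gate, the 1738 Hulunbuir cells with a CDX2 UMI made up 18.1% of cells, at a median depth of 12037 UMIs against 11844 in the other 7841. They held 49.5% of the COL2A1 UMIs, 20.3% of the SOX9 UMIs and 8.30% of the COL11A1 UMIs. COL2A1 stood at 104 CPM (100 to 109) with CDX2 and at 23.8 (22.9 to 24.8) without it. SOX9 stood at 19.1 (17.4 to 20.9) and 16.8 (16.0 to 17.6), and COL11A1 at 18.5 (16.8 to 20.3) and 45.7 (44.4 to 47.0). COL2A1 was divided in the same direction in Ujumqin, at 74.2 (64.4 to 85.1) in 99 cells with CDX2 and 14.9 (14.1 to 15.6) in 9223 without. Those 99 cells were 1.06% of cells and held 12.1% of the COL2A1 UMIs, at median depths of 7811 and 1764 UMIs. Among Ujumqin cells with no gate it was 108 (85.4 to 135) in 55 cells and 22.6 (21.1 to 24.1) in 6151.

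The lateral plate gate was divided most sharply. Its 202 Hulunbuir cells with CDX2 held COL2A1 at 192 CPM (177 to 207), above the Hulunbuir somite gate, and the other 1531 cells held 12.5 (11.2 to 13.8). SOX9 went the other way, with 7.47 (4.78 to 11.1, 24 UMIs) in the cells with CDX2 and 12.8 (11.6 to 14.1) in the rest, and so did COL11A1, with 25.5 (20.3 to 31.7) and 59.2 (56.5 to 62.0). In the mesenchyme gate COL2A1 was 152 (130 to 176) in 85 cells with CDX2 and 19.3 (17.5 to 21.3) in 1395 cells without it, while SOX9 was 6.25 (2.51 to 12.9) and 17.0 (15.2 to 18.9). COL2A1 in these cells was thus high while SOX9 was lower than in their neighbours. The EPCAM/CLDN4 gate differed: there the 48 cells with CDX2 were higher in COL2A1 (134 against 31.0), in SOX9 (65.7, 48.6 to 86.8, against 34.2, 25.7 to 44.6) and in COL11A1 (32.2 against 5.06). The whole caudal progenitor list, CDX2 included, divided the Hulunbuir lateral plate gate in the same way, with COL2A1 at 175 (163 to 189) in 253 cells with at least 1 of them and at 10.3 (9.21 to 11.6) in 1480 cells with none. Markers of several other lists divided this gate too. COL2A1 stood at 130 with and 22.2 without neural tube markers, and at 102 and 24.4 for the intermediate mesoderm list. For the list of the EPCAM/CLDN4 gate it was 69.0 and 23.0, and for that of the TNNC1/TNNI1 gate 65.0 and 14.6. The list of the DLL1/DLL3 gate gave 64.6 and 25.8, and the endothelium list 44.4 and 28.1. Intervals overlapped for the macrophage list (37.7 and 29.2) and the erythroid list (39.6 and 29.6, with 12 UMIs in the cells with a marker). The somite list made little difference (32.0 and 29.5). COL2A1 was lower with markers of the TFAP2A/TFAP2B gate's list (22.5 and 32.6) and of extraembryonic endoderm (19.3 and 31.0). For the notochord list it was 21.7 and 29.8, with only 13 UMIs in the cells with a marker. In the Ujumqin lateral plate gate 4 of 569 cells had CDX2, and 2 of these 4 held 42 of its 76 COL2A1 UMIs. The 4 Ujumqin mesenchyme cells with CDX2 held 0 COL2A1 UMIs.

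**Figure D3:**
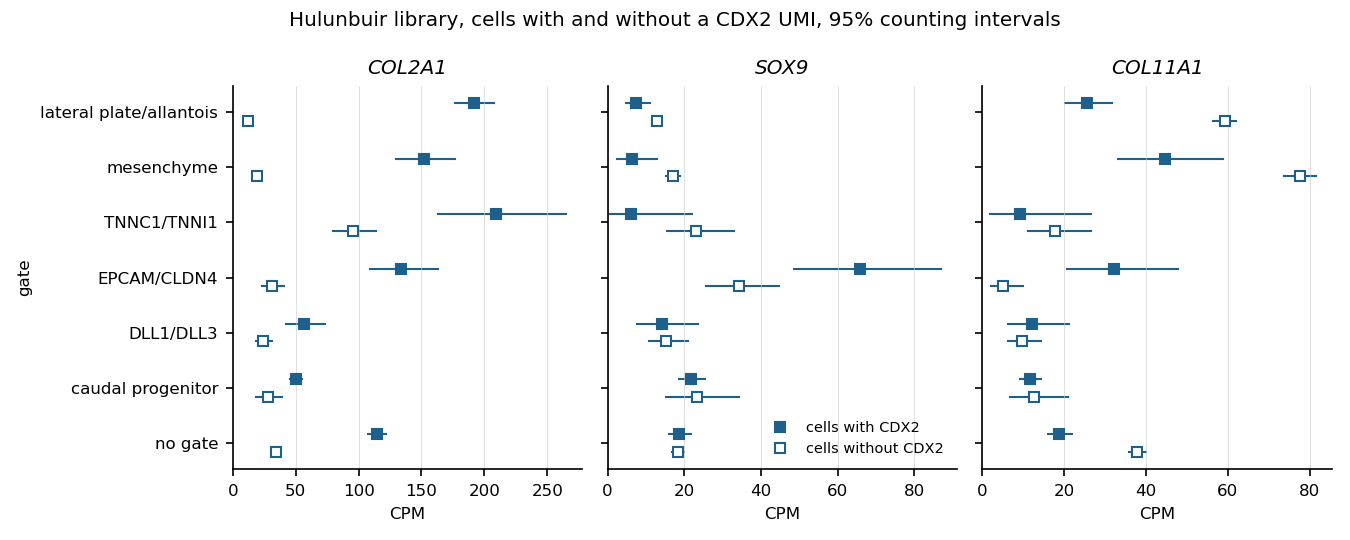
Hulunbuir library: level of each gene in CPM in cells with (filled) and without (open) a CDX2 UMI, by gate, with 95% Poisson intervals. Among the gates and ungated cells plotted, COL2A1 was higher in the cells with CDX2, at 50.04 in the caudal progenitor gate and 209 in the TNNC1/TNNI1 gate, whereas SOX9 and COL11A1 were lower in the lateral plate and mesenchyme gates.

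Few cells carried genes of the notochord and floor plate. NOTO is a notochord homeobox gene, SHH the ventral midline signal, CHRD a BMP antagonist and FOXA2 a transcription factor of the midline and of gut endoderm. Of the 11 Hulunbuir cells with FOXA2, 6 lay in the EPCAM/CLDN4 gate. The 27 Hulunbuir cells with a UMI of any of these held SOX9 at 238 CPM (196 to 287), COL2A1 at 232 (190 to 280) and COL11A1 at 52.0 (33.3 to 77.4). Of these 27 cells, 9 had both SOX9 and COL2A1. The cell with most of each held 36 of the 110 SOX9 UMIs and 29 of the 107 COL2A1 UMIs. Without it the Hulunbuir levels were 171 and 180. The 16 Ujumqin cells of the same kind held SOX9 at 102 (74.1 to 138) and COL2A1 at 83.3 (58.0 to 116), but 37 of their 43 SOX9 UMIs and 26 of their 35 COL2A1 UMIs came from the cell with most of each. Without that cell the Ujumqin levels were 20.7 and 31.1. The notochord gate itself held 2 cells in each library, too few for a level.

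The neural tube gate gave a Ujumqin value that rested on 1 cell. All 31 COL2A1 UMIs of its 33 Ujumqin cells, 11 of the 15 SOX9 UMIs and all 4 COL11A1 UMIs were in 1 cell, and 0 COL2A1 UMIs were in the other 32. The 162 Hulunbuir cells held COL2A1 at 11.2 CPM (6.93 to 17.1), with SOX9 at 32.0 (24.4 to 41.1) and COL11A1 at 12.8 (8.19 to 19.0). Cells with PAX6, a neural tube transcription factor, likewise held COL2A1 at 8.83 (2.87 to 20.6) in Ujumqin and 12.7 (8.14 to 18.9) in Hulunbuir. SOX2 and IRX3, which are also expressed outside the neural tube, marked cells with 95.7 and 83.3 in Ujumqin and 43.8 and 97.9 in Hulunbuir.

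Between the libraries the 3 genes differed in unlike ways by gate. In the somite gate COL2A1 was lower in Hulunbuir by a log2 difference of -0.48 (-0.77 to -0.20), SOX9 differed by 0.28 (-0.31 to 0.90) and COL11A1 by 0.60 (-0.62 to 1.98). The median over all 5300 genes with at least 20 UMIs there was 0.20, so relative to it COL2A1 stood further down. In the lateral plate gate COL2A1 was 10.3-fold higher in Hulunbuir, a log2 difference of 3.37 (3.03 to 3.73) against a median of 0.32 over 10337 genes. In the mesenchyme gate it was 4.78-fold higher, 2.26 (1.96 to 2.57) against 0.29 over 9774 genes. SOX9 differed by 0.15 (-0.07 to 0.37) and 0.67 (0.42 to 0.93) in these 2 gates, and COL11A1 by -0.37 (-0.46 to -0.27) and 0.28 (0.17 to 0.38). Lateral plate markers counted as present from lower levels in Ujumqin, HAND2 from 24.7 CPM against 67.0 in Hulunbuir and PITX1 from 6.91 against 24.0. The lateral plate gates thus did not admit cells by the same levels, and the effect on the differences was not tested. Over all cells outside the erythroid gate COL2A1 differed by 1.23 (1.15 to 1.31), and among cells with no gate by 1.08 (0.97 to 1.19).

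The lateral plate difference in COL2A1 was 3.27 among cells without CDX2. In the mesenchyme gate it was 1.81 without them. Among lateral plate cells with no marker of any list but those of lateral plate and mesenchyme, 43 Ujumqin cells held 0 COL2A1 UMIs and 509 Hulunbuir cells held 6.87 CPM (61 UMIs). That was 2.68-fold the level that 3 UMIs would give in the Ujumqin cells, which is not a lower limit of the difference. The lower limit of the counting interval was a log2 difference of 1.08. COL11A1 in those cells was 76.8 and 62.6. In the neural tube gate the difference was -3.99 for COL2A1 and -1.42 for SOX9, both resting on the 1 Ujumqin cell described above. Without it SOX9 stood at 0.25 and COL2A1 could not be compared.

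The wider cartilage lists were read against these gates. Of 63 genes in 7 lists, 62 were in the table, and a gene was compared if the libraries together held 20 UMIs of it in the gate. At least 2-fold higher in Hulunbuir were 10.3% of all compared genes in the somite gate, 16.4% in the lateral plate gate and 14.4% in the mesenchyme gate. At least 2-fold lower were 2.45%, 4.24% and 4.03%. In the somite gate 4 of 19 compared list genes were higher and 1 was lower, with a list median of 0.28. In the lateral plate gate 6 of 40 were higher and 8 lower (median -0.15), and in the mesenchyme gate 5 of 39 were higher and 6 lower (median 0.04). The share of higher genes was near the background in the lateral plate and mesenchyme gates, and that of lower genes was above it in both.

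The lower genes were mostly other fibrillar collagens. In the lateral plate gate 5 of 6 compared members were at least 2-fold lower in Hulunbuir, with a median of -1.38. COL1A1 and COL1A2, the chains of type I collagen, stood at 2124 and 1188 CPM in Ujumqin and at 629 and 394 in Hulunbuir. COL3A1, the chain of type III collagen and itself one of the mesenchyme gate markers, stood at 1090 and 262. COL5A1 and COL5A2, chains of type V collagen, differed by -1.17 and -1.14. In the mesenchyme gate 4 of 6 were lower (median -1.13), but the gate itself bears on this. COL3A1 counted as present from 364 CPM in a Ujumqin cell and from 224 in a Hulunbuir cell, its levels over all kept cells. Ujumqin cells thus needed more COL3A1 to enter by this marker, so the collagen difference in that gate is not independent of the gating. COL11A1, whose product can pair with type V chains, differed by less than 2-fold in both gates. In the somite gate COL3A1 was lower in Hulunbuir, at 110 against 264.

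The partners of SOX9 were sparse. SOX5 and SOX6, which act with SOX9 on the COL2A1 enhancer in chondrocytes, gave 2 and 0 UMIs in the Ujumqin somite gate and 4 and 0 in the Hulunbuir one. In the lateral plate gate SOX5 stood at 3.39 and 2.71 CPM and SOX6 at 1.92 and 4.53. SOX6 was at least 2-fold higher in Hulunbuir in the lateral plate gate (1.24) and in the mesenchyme gate (2.44). Summed over cells, those with SOX5 or SOX6 held more COL11A1 than COL2A1. Cells with SOX5 held COL11A1 at 80.8 in Ujumqin and 60.5 in Hulunbuir, against COL2A1 at 12.8 and 34.2. Cells with SOX6 held COL11A1 at 66.2 and 83.0, against COL2A1 at 16.7 and 29.9. All cells outside the erythroid gate had the same order, with COL11A1 at 45.4 and 40.7 and COL2A1 at 16.5 and 38.5. SOX8 gave 0 and 4 UMIs outside the erythroid gate.

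The further cartilage collagens were not read in the EPCAM/CLDN4, intermediate mesoderm, endothelium and extraembryonic endoderm gates. Among the gates read, COL9A1, a chain of type IX collagen, was highest in the Hulunbuir TFAP2A/TFAP2B cells, at 19.0 CPM (13 UMIs). It stood at 2.54 and 4.20 in the somite gate. COL9A2 reached 7.29 in the Hulunbuir TFAP2A/TFAP2B cells, from 5 UMIs. COL9A3 gave 2 UMIs and COL11A2 3 UMIs in all Ujumqin cells outside the erythroid gate, and 13 and 17 in Hulunbuir.

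Of 10 cartilage matrix genes 5 reached 20 UMIs outside the erythroid gate. Among the others ACAN, the aggrecan core protein, gave 2 Ujumqin and 12 Hulunbuir UMIs. MATN1 gave 11 and 0, EPYC 0 and 2, CHAD 2 and 0, and MATN4 1 and 1. Of the detected genes COMP, a cartilage oligomeric matrix protein, gave 76 and 81 UMIs, VIT 5 and 15, MATN3 21 and 140 and CNMD 64 and 212. HAPLN1, the link protein that ties aggrecan to hyaluronan, gave 1576 and 2144 UMIs; it stood at 14.4 and 16.3 CPM in the somite gate and at 22.4 and 16.8 in the lateral plate gate. CNMD and MATN3 were higher in Hulunbuir in the lateral plate gate (1.86 and 2.09) and in the mesenchyme gate (1.24 and 1.20), at levels of 3.04 CPM or less.

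**Figure D4:**
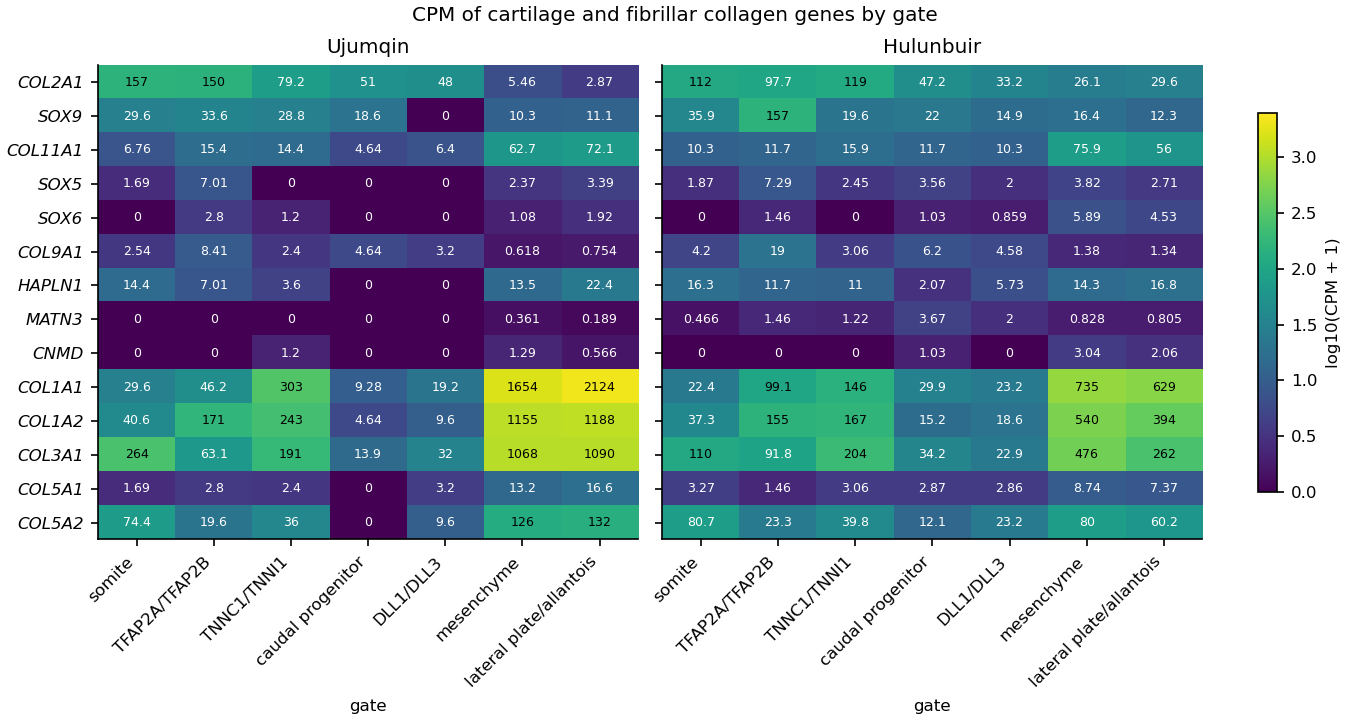
CPM of 14 genes (rows) in 7 gates (columns), Ujumqin left and Hulunbuir right; colour is log10(CPM + 1) and the level is written in each cell. The COL2A1 row is brightest in the somite, TFAP2A/TFAP2B and TNNC1/TNNI1 columns, and the COL11A1, COL1A1, COL1A2, COL3A1 and COL5A1 rows in the mesenchyme and lateral plate columns.

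Of 9 measured late cartilage and bone genes 5 reached 20 UMIs outside the erythroid gate. COL10A1, the collagen of hypertrophic cartilage, gave 0 UMIs in both libraries outside the erythroid gate, and SP7, a bone transcription factor, gave 1 and 4. IHH, the ligand of growth plate cartilage, gave 5 and 1. RUNX2, a regulator of hypertrophy and bone, was lower in Hulunbuir in the lateral plate (2.41 against 0.418 CPM) and mesenchyme gates, with 14 Hulunbuir UMIs in each. SPP1, which encodes osteopontin, gave 1077 and 2893 UMIs outside the erythroid gate and was lower in Hulunbuir in the lateral plate gate (-1.14). IBSP, a bone sialoprotein, gave 21 and 5 UMIs, BGLAP, which encodes osteocalcin, 36 and 26, and ALPL, an alkaline phosphatase, 7 and 12. PTH1R, the receptor for parathyroid hormone-related protein, was the best detected of this list in the somite gate, at 41.4 and 40.1 CPM.

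The list of collagen processing and secretion genes, which holds enzymes, chaperones and parts of the secretory path, could be compared in full in the lateral plate and mesenchyme gates, where 16 of 16 reached 20 UMIs. Of these, 15 differed by less than 2-fold in each gate, with medians of -0.12 and -0.00449. The exception in both was ADAMTS2, which removes the amino end of procollagen, at -1.48 and -1.46. Among all compared genes of the lateral plate gate, 16.4% were at least 2-fold higher and 4.24% at least 2-fold lower in Hulunbuir. In the mesenchyme gate these shares were 14.4% and 4.03%, so most genes of both gates also differed by less than 2-fold. In the somite gate 9 of these genes were compared, 3 were at least 2-fold higher in Hulunbuir (10.3% of all genes there) and 6 differed by less. The higher ones were PLOD1 and PLOD2, which hydroxylate collagen lysines, and P3H1, a prolyl hydroxylase, at 1.58, 1.31 and 1.66, from 7, 8 and 7 Ujumqin UMIs. PTCH1, the Hedgehog receptor and target, was higher there as well, at 14.9 against 4.23 CPM (1.82).

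Likeness over gates was taken as the Pearson correlation of log2(CPM + 1) over 19 groups of at least 50 cells, each 1 gate in 1 library, so that groups of a library share its depth. It is a description only. Among 6256 genes the 5 most like COL2A1 were AIF1L (0.89), DLG3 (0.88), CXADR (0.86), SYTL1 (0.86) and AUH (0.86). CXADR encodes a junction protein of epithelia and myocardium. The 5 most like SOX9 were NELL2 (0.94), RPS18 (0.94), SYTL1 (0.93), IFT43 (0.93) and PAK1 (0.93). RPS18 varied little over the groups, from 12.7 to 13.5 on this log2 scale, against 0 to 5.50 for NELL2. The 5 most like COL11A1 were COL4A6 (0.95), MBOAT1 (0.93), DAPK1 (0.93), CPZ (0.92) and LOX (0.92). COL4A6 is a basement membrane collagen chain, and LOX crosslinks collagen. Among the listed genes COL11A1 was also near COL5A1 (0.92), P4HA1 (0.89) and PLOD2 (0.88), with 0.34 to COL2A1 and 0.59 to SOX9, whereas SOX9 and COL2A1 stood at 0.83 to each other.

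Many member UMIs lay outside the gates. Of the Ujumqin COL2A1 UMIs, 52.0% came from cells with no gate (24.2 CPM), and of the Hulunbuir ones 43.1% (51.1 CPM). In the Hulunbuir cells without a gate, CDX2 again divided COL2A1, with 114 (107 to 122) in 708 cells and 34.1 (32.1 to 36.1) in 3557. In Ujumqin the extraembryonic endoderm list gated 778 cells, most of them shallow. Its 77 cells with at least 5000 UMIs held COL2A1 at 18.2 (14.4 to 22.6), with a UMI in 42.9% of cells at a median depth of 43047 UMIs, SOX9 at 2.53 and COL11A1 at 5.52. After thinning, COL2A1 was found in 13.0% (6.41 to 22.6) of them, against 0.185% in the erythroid gate.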

How the data were processed

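Raw UMI counts per gene and cell were taken as deposited. The authors made them with Cell Ranger (5.0.0 in the file headers, 3.1.0 in the submitters' processing notes) on the sheep Rambouillet v1.0 reference, 1 library per breed from pooled embryos. The cell filter required 200 detected genes or more, with mitochondrial UMIs below 10%. Levels are given as CPM, a gate's summed count of a gene scaled to 1000000 UMIs, with exact 95% Poisson intervals. Differences carry exact conditional binomial intervals and shares exact Clopper-Pearson intervals. No doublets were removed. An alternative removed the highest Scrublet scores (scanpy 1.11.5) at 0.8% per 1000 barcodes. No clustering was used. The sclerotome gate is not reported here.

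A marker counted as present in a cell if it had a UMI and its share of the cell's UMIs reached its level over all kept cells of the library. This rule was set after marker counts, but not the levels of the 3 genes, had been looked at. The 3 genes and all lists were chosen with earlier results of these data known. Named genes are the 3 genes, the list genes and, for each of the 3, the 5 genes of highest correlation over gates, among those with a symbol, at least 200 UMIs in each library and no part in a gate. Of 119 gate markers 5 were not among the features used here (CLDN6, GYPB, APOB, PF4 and ITGA2B), nor was MMP13 of the lists. Genes that share a symbol were taken at their first feature. Computations used Python 3.11.15, scipy 1.17.1 and numpy 2.4.6, and were tested on simulated data.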

Additional observations from a re-analysis of the deposited data

Results flagged for a closer look

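The COL2A1 difference between the libraries had opposite directions in different gates. The log2 difference of Hulunbuir over Ujumqin was -0.48 in the somite gate, 3.37 in the lateral plate gate and 2.26 in the mesenchyme gate. With 1 library per breed the difference between these gates was not tested.

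Barcodes outside the cell filter also held the 3 genes. The 2505 Ujumqin barcodes (median 815 UMIs) held COL2A1 at 22.3 CPM, SOX9 at 7.75 and COL11A1 at 22.0, and the 1126 Hulunbuir barcodes (median 1359.5 UMIs) held 52.7, 9.16 and 60.4. A count of 3 UMIs would have been 0.894 and 1.10 CPM.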

How the results depend on the processing

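No paired analysis was possible because each breed had 1 library and no test was run between them. Of 100 values recomputed under other settings, 89 stayed within the counting interval of the reported value. In the somite gate the log2 differences stayed within it under every setting run. Using the mean of the cells' own levels moved COL2A1 in the neural tube gate to -1.42, COL2A1, SOX9 and COL11A1 in the mesenchyme gate to 2.63, 1.10 and 0.48, and turned SOX9 in the neural tube gate to 0.49; leaving out the 1 Ujumqin cell turned it to 0.25. Removing 1986 Ujumqin and 821 Hulunbuir cells of highest doublet score moved COL2A1 in the lateral plate gate to 4.06. Leaving out cells with CDX2 moved COL2A1 in the mesenchyme gate to 1.81. Cells with no marker of another list but mesenchyme moved SOX9 in the lateral plate gate to 1.48, on 5 Ujumqin UMIs. Thinning to 2000 UMIs moved the share of somite-gated SOX9 cells with COL2A1 to 0% (0 of 3) in Ujumqin and 12.5% (1 of 8) in Hulunbuir; thinning to 10000 gave 80.0% (8 of 10) and 60.0% (15 of 25). The cause of these changes was not tested, apart from the fewer cells or UMIs that the settings leave. With 1 marker more, 0 UMIs of the 3 genes were left in 6 Ujumqin neural tube cells, and no difference could be given there; the same holds for COL2A1 and COL11A1 without the 1 cell. The alternatives for the lateral plate and mesenchyme gates, and those on CDX2, shared barcodes and the 1 cell, were chosen after the data had been seen. Depth limits SOX9 most, since most cells with SOX9 had 1 UMI.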
